A study of Rattus norvegicus with 14 samples.

Results

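The 36 genes described here drive or mark the cell division cycle, and they were chosen by name: a list of cyclins, cyclin-dependent kinases (CDKs), mitotic regulators, replication factors, proliferation markers and CDK inhibitors was matched to the gene name of each array probe. All were found, on 48 probes, among 19801 named genes on the array. Each gene was read from its brightest probe, and 35 of the 36 passed the filter on dim probes, as did 17456 of all named genes. The exception was Aurkb, the kinase of the chromosomal passenger complex, whose probe was well above background on 1 of 14 arrays.

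The RNA came from plantaris, a fast-twitch calf muscle, of Wistar rats, 1 muscle per array. Repletion rats (n = 4) were first depleted of vitamin D through the diet and then given it back, depletion rats (n = 6) were fed the depletion diet, and control rats (n = 4) were fed 1000 IU of vitamin D per kg of food. For 1 muscle, depletion replicate 1, title and diet label disagree: the label has it in repletion, and the title, which was followed, in depletion. The titles describe biological replicates. The sources used here give no sex, age, feeding time or vitamin D content for the other diets, and name no genetic change. A level below is the log2 signal relative to the 75th percentile of the array, so 0 is that percentile and a step of 1 is a doubling.

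Dividing cells switch these genes on in order. D cyclins with Cdk4, and then E cyclins with Cdk2, start DNA synthesis; the Mcm helicase, the Pcna clamp and nucleotide-making enzymes carry it out; cyclins A and B with Cdk1, checkpoint proteins and spindle motors carry the cell through mitosis. Muscle fibres have left the cell cycle, so in adult muscle these transcripts are known mainly from satellite cells and from vessel, connective tissue and immune cells, while fibres keep CDK inhibitors such as Cdkn1a, a known target of the vitamin D receptor in human cells. In bulk RNA, fewer dividing cells and less RNA per cell cannot be told apart. Not all of these transcripts were scarce. Mean levels over the 14 arrays were 1.24 for Mcm7, 0.31 for Pcna and 0.14 for Cdc20, beside -6.17 for Top2a and -7.68 for Bub1b. Which cells each came from was not tested.

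Arrays differed in technical respects that touch these genes. The 14 arrays lay on 5 slides. On slide 1 were repletion 1, depletion 1 and controls 1 and 2 (numbers are replicates), and on slide 2 were repletion 2, depletion 2 and control 3. Repletion 3 shared slide 3 with depletion 3 and 4, depletion 5 shared slide 4 with control 4, and repletion 4 shared slide 5 with depletion 6. Between 82.8% and 88.1% of spots were well above background, the 75th percentile of the signal was 1781 to 2387, and no spot was saturated. The tissue label was checked on 10 markers of muscle fibres, such as Acta1 and Ckm, and all were well above background on every array.

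The promoters of these genes are shown first, because many of them share short letter groups that were not used to choose them. RefSeq (GRCr8) gave a window of 250 bases before to 50 bases after the start site for 28 of the 36 genes. No window was matched for Ccna2, Aurkb, Mcm4, Rrm2, Ccnd1, Ccnd2, Ccne2 and Cdkn1c. The motifs were searched on both strands: the CHR element (TTTGAA or TTCGAA), which is known from mitotic genes; the CCAAT box (CCAAT), often its neighbour; and the E2F site (TTCGCGC or TTGGCGC), known from replication genes.

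A CHR element lay in 13 of the 28 windows (46.4%), against 19.7% of all 33469 promoter windows in the table. A CCAAT box lay in 20 of 28 (71.4%) against 37.5%, and both together in 11 of 28 (39.3%) against 7.95%. An E2F site lay in 8 of 28 (28.6%) against 3.66%. Of the 12 windows of mitotic genes, 8 held a CHR element and 1 an E2F site, whereas of the 8 windows of replication genes, 3 held a CHR element and 6 an E2F site. None of the 4 windows of G1 genes or the 2 of CDK inhibitors held a CHR element or an E2F site in the forms searched. Other forms of the E2F site, such as TTCCCGC, were not searched. The Cdk2 window, that of a G1 gene, holds TTCCCGC read from the other strand. A CCAAT box lay in 9 of the 12 mitotic, 6 of the 8 replication, 2 of the 4 G1 and 1 of the 2 inhibitor windows. Differences between roles were not tested. These are matches of letters, not measured binding. Start sites were taken as RefSeq gives them and were not checked. A window off the promoter, as that of Aurka may be, could count as lacking motifs.

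The windows below are those of Mki67 (chr1:199952544-199952843, minus strand), Top2a (chr10:84473044-84473343, minus strand), Cdk1 (chr20:19265043-19265342, plus strand), Ccnb2 (chr8:79981609-79981908, minus strand), Cks2 (chr17:13727470-13727769, minus strand) and Mcm6 (chr13:42404303-42404602, minus strand), each written in the direction of the gene. Capitals mark the letters of the 3 motifs on either strand, so ATTGG is a CCAAT box and TTCAAA a CHR element read from the other strand; 2 pairs of E2F matches overlap in Mcm6, and the last base of a CHR element overlaps a CCAAT box in Mki67.
Mki67: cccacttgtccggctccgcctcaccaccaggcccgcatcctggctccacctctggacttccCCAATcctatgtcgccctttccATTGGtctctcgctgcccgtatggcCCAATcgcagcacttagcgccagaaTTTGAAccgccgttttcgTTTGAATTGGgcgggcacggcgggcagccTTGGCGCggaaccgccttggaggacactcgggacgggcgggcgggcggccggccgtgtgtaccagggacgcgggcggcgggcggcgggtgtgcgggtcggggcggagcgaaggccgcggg
Top2a: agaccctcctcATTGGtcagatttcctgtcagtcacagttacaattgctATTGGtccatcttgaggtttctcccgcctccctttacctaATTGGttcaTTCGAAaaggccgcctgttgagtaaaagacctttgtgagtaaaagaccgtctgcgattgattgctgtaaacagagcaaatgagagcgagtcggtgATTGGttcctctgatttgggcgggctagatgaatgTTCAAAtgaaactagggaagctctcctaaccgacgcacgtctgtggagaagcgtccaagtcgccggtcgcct
Cdk1: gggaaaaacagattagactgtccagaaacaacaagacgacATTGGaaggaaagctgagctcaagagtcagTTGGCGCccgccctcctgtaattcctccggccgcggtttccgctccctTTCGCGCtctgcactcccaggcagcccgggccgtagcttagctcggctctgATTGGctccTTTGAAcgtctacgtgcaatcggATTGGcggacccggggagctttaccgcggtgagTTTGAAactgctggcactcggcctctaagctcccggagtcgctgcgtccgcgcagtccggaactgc
Ccnb2: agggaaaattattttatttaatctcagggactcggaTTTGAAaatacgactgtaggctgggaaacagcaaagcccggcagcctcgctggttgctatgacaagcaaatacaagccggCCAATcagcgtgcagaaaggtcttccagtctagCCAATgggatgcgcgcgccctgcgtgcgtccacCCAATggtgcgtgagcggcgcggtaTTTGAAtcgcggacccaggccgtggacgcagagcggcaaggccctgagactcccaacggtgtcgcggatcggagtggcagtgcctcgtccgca
Cks2: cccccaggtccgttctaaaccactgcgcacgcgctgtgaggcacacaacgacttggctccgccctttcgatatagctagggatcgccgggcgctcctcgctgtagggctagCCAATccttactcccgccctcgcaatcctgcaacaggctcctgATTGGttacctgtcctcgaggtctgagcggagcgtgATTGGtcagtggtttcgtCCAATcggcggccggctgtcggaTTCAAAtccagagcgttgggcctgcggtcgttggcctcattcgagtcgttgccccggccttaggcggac
Mcm6: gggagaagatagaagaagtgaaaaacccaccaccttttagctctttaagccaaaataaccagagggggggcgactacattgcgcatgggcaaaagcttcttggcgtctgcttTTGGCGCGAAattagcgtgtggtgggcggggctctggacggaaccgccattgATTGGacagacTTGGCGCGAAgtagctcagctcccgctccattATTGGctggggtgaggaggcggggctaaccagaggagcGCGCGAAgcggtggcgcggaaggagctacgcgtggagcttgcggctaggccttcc
The first 4 belong to genes whose levels varied together from muscle to muscle, as given further on. Cks2 carries 1 CHR element and 4 CCAAT boxes but did not follow them, and Mcm6 has 5 E2F matches and no CHR element.

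Across the 3 diets, the cell cycle genes differed by less than their spread between muscles allows to call. In limma's moderated t test with slide as a block and Benjamini-Hochberg adjustment over 26391 probes, 0 of the 35 genes were called in each of the 3 comparisons at an adjusted p under 0.05, against 0.0% of all 17456 genes. Mki67, the protein that coats mitotic chromosomes and is the usual mark of dividing cells, had nearly the same mean in each diet. Its level was -2.91, -2.38, -2.51 and -2.83 in the 4 repletion muscles. In depletion muscles it ranged from -3.04 to -2.32 with a median of -2.55, and in control muscles it was -2.20, -3.21, -2.54 and -2.77. The highest and the lowest muscle were both controls on slide 1, and the 3 diets overlapped.

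The difference of Mki67 in depletion against control was 0.02 ± 0.24 (log2, SE). It was -0.01 ± 0.22 in repletion against depletion and 0.00 ± 0.26 for repletion relative to control. Its 3 probes varied alike, with Pearson r of 0.88 and 0.89 between the brightest and the others over 14 arrays. The other probes gave -0.27 ± 0.39 and -0.19 ± 0.29 in depletion against control. In repletion against depletion they gave 0.28 ± 0.35 and 0.03 ± 0.27, so the values nearest to 0 are those of the brightest probe. Top2a, the enzyme that untangles replicated DNA, had a difference of -0.91 ± 0.78 in depletion against control, with 0.40 ± 0.72 in repletion against depletion. Its level had an SD of 1.20 over the 14 arrays, and it was well above background on 11 of them.

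**Figure D1:**
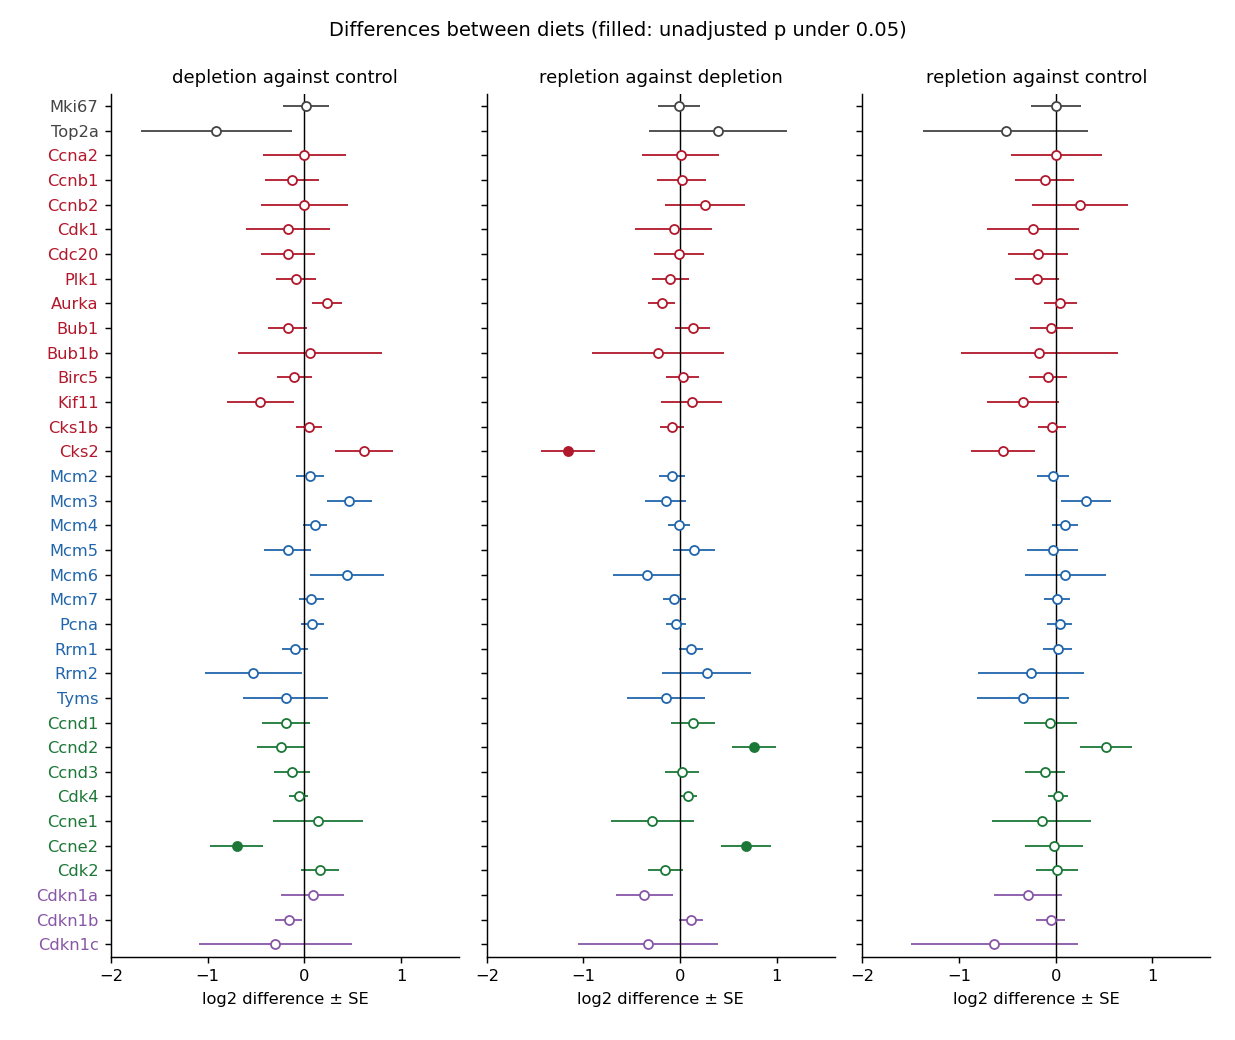
Differences of the 35 genes in the 3 comparisons (log2, first-named diet minus second, ± SE from limma), with genes down the page coloured by role from proliferation markers (grey) through mitosis (red), DNA replication (blue) and G1 (green) to CDK inhibitors (purple). Filled points had an unadjusted p under 0.05: Cks2, Ccnd2 and Ccne2, with differences of -1.16, 0.77 and 0.68 in repletion against depletion, and Ccne2 with -0.70 in depletion against control.

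Depletion against control compares muscle after the depletion diet with muscle on the control diet. Over all probes, 566 were higher and 709 lower at an unadjusted p under 0.05, and 252 and 527 with normexp background correction. The split was 656 higher and 595 lower with arrays centred on the median, 600 and 668 after quantile normalization, and 674 and 824 in the authors' deposited values. Of the 35 genes, 15 were higher and 20 lower in depletion, with a median difference of -0.09, beside -0.02 over all genes tested, of which 46.2% were higher. At an unadjusted p under 0.05, 0 genes were higher and 1, Ccne2, was lower, against 2.14% higher and 2.61% lower among all genes. No gene had depletion and control muscles fully apart, a pattern found higher in 0.321% and lower in 0.527% of all genes.

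By role, mitotic genes had a median difference of -0.09 (5 of 13 higher), G1 cyclins and kinases -0.13 (2 of 7 higher) and replication genes 0.06 (6 of 10 higher). The largest positive differences after Cks2 (0.62 ± 0.30) were those of Mcm3 (0.47 ± 0.24, unadjusted p = 0.0780) and Mcm6 (0.44 ± 0.38), both subunits of the helicase that opens DNA for copying. Mcm3 rests on 1 of its 2 probes: the other gave 0.07 ± 0.13, and the probes correlated at r = 0.22. The largest negative differences were those of Top2a, of Ccne2 and of Rrm2, the small subunit of ribonucleotide reductase (-0.53 ± 0.50). None of these passed the adjusted test.

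Repletion against depletion compares muscle after vitamin D was given back with muscle kept on the depletion diet. Of the 35 genes, 16 were higher and 19 lower, with a median of -0.01, beside 0.03 over all genes, of which 58.6% were higher. At an unadjusted p under 0.05, Ccnd2 and Ccne2 were higher (2 of 35, against 2.51% of all genes) and Cks2 was lower (1 of 35, against 0.928%). Over all probes the split was 662 higher and 255 lower, but 426 higher and 440 lower with arrays centred on the median, 449 and 394 after quantile normalization, 159 and 159 with normexp, and 455 and 440 in the authors' deposited values. No gene had fully separate groups, against 0.235% higher and 0.0859% lower among all genes.

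Repletion against control compares muscle after vitamin D was given back with muscle on the control diet. Over all probes, 342 were higher and 182 lower at an unadjusted p under 0.05, against 305 and 252 after quantile normalization, 64 and 177 with normexp, and 245 and 224 in the authors' deposited values. Of the 35 genes, 13 were higher and 22 lower, with a median of -0.04, beside 0.02 over all genes, of which 54.5% were higher. No gene reached an unadjusted p under 0.05, against 1.35% higher and 0.762% lower among all genes, and none had separate groups, against 0.813% and 0.458%. Among mitotic genes 3 of 13 were higher, and the 3 CDK inhibitors were all lower, from -0.64 (Cdkn1c) to -0.05 (Cdkn1b). Each pair of comparisons shares the muscles of a diet, so their values stand side by side and are not independent.

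Over the 3 diets together, limma's F test gave 3 of 35 genes (8.57%) an unadjusted p under 0.05, Cks2, Ccnd2 and Ccne2, against 3.15% of all genes. None passed after adjustment (0.0% of all genes did). Their probes lie on rn4 at chr17:19423579-19423638 on the minus strand (Cks2), chr4:163535032-163541856 on the minus strand (Ccnd2) and chr5:25039349-25040889 on the plus strand (Ccne2). The Ccnd2 and Ccne2 probes are 60 bases long but cover longer stretches of genome, so each spans a splice junction. They are shown because each of these genes was read by this 1 probe alone.
Ccnd2: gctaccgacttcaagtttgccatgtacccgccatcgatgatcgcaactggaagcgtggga
Ccne2: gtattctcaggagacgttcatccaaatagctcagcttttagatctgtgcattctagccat

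Cks2, a small adaptor that binds CDKs and helps mitotic cells degrade cyclins, had its lowest mean after repletion. Its level was -3.94, -3.81, -4.30 and -4.56 in repletion muscles, ran from -3.83 to -2.42 with a median of -3.16 in depletion muscles, and was -2.89, -3.39, -3.79 and -4.25 in control muscles. Only depletion replicate 2 fell within the repletion range. The means were -4.15 ± 0.34 in repletion (SD, n = 4), -3.12 ± 0.57 in depletion (n = 6) and -3.58 ± 0.58 in control muscles (n = 4).

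The difference of Cks2 in repletion against depletion was -1.16 ± 0.28 (SE), with an unadjusted p of 0.00205 and an adjusted p of 0.933 in limma's moderated t test. Within slides it was -1.52 on slide 1, 0.01 on slide 2, -1.05 on slide 3 and -2.01 on slide 5, so 3 of the 4 slides that hold both diets showed it. It was 0.62 ± 0.30 in depletion against control (unadjusted p = 0.0690) and -0.54 ± 0.33 in repletion against control. Cks1b, its close relative, did not do likewise: its difference in repletion against depletion was -0.08 ± 0.12.

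Ccnd2, the D cyclin that opens G1 in response to growth signals, had its highest mean after repletion. Its level was -1.73, -1.42, -2.01 and -1.92 in repletion muscles, ran from -3.34 to -1.88 with a median of -2.36 in depletion muscles, and was -2.18, -2.49, -2.15 and -1.99 in control muscles. All but 1 depletion muscle, replicate 2, lay below all 4 repletion muscles. The depletion muscles also spread more widely (SD 0.56) than those of repletion (0.26) and control (0.21).

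The difference of Ccnd2 was 0.77 ± 0.23 in repletion against depletion, with an unadjusted p of 0.00777 and an adjusted p of 0.933. It was higher in repletion on all 4 slides that hold both diets, by 1.62, 0.45, 0.56 and 0.60 on slides 1, 2, 3 and 5. Depletion replicate 1, whose diet label is in doubt, was the lowest muscle. Counted as repletion instead, it moved the difference to 0.40 (unadjusted p = 0.261). The difference was 0.52 ± 0.27 in repletion against control and -0.25 ± 0.25 in depletion against control. Ccnd1 (0.13 ± 0.23) and Ccnd3 (0.02 ± 0.17), the other D cyclins, and their partner Cdk4 (0.08 ± 0.09) differed less in repletion against depletion.

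Ccne2, an E cyclin that with Cdk2 starts DNA synthesis, had its lowest mean in depletion muscles. Its level was -5.94, -6.17, -5.97 and -5.50 in repletion muscles, ran from -7.54 to -6.14 with a median of -6.57 in depletion muscles, and was -6.08, -5.53, -5.82 and -6.18 in control muscles. Depletion replicate 1 was the 1 depletion muscle inside the ranges of the other diets. The lowest, replicate 3, was not well above background.

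The difference of Ccne2 was 0.68 ± 0.25 in repletion against depletion (unadjusted p = 0.0240, adjusted p = 0.933) and -0.70 ± 0.28 in depletion against control (unadjusted p = 0.0314, adjusted p = 0.832). It was -0.02 ± 0.30 in repletion against control. On the slides that hold both diets, it was higher in repletion than in depletion by 0.20, 0.12, 1.03 and 1.19 on slides 1, 2, 3 and 5. The difference in depletion against control was -0.33, -0.47 and -0.89 on slides 1, 2 and 4. With normexp background correction the 2 differences were 0.12 and -0.39 (unadjusted p = 0.591 and 0.116 in limma), and in the authors' deposited values 0.15 and -0.14 (unadjusted p = 0.0996 and 0.131), so neither kept an unadjusted p under 0.05. Ccne1, the other E cyclin, had a difference of -0.29 ± 0.43 in repletion against depletion.

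**Figure D2:**
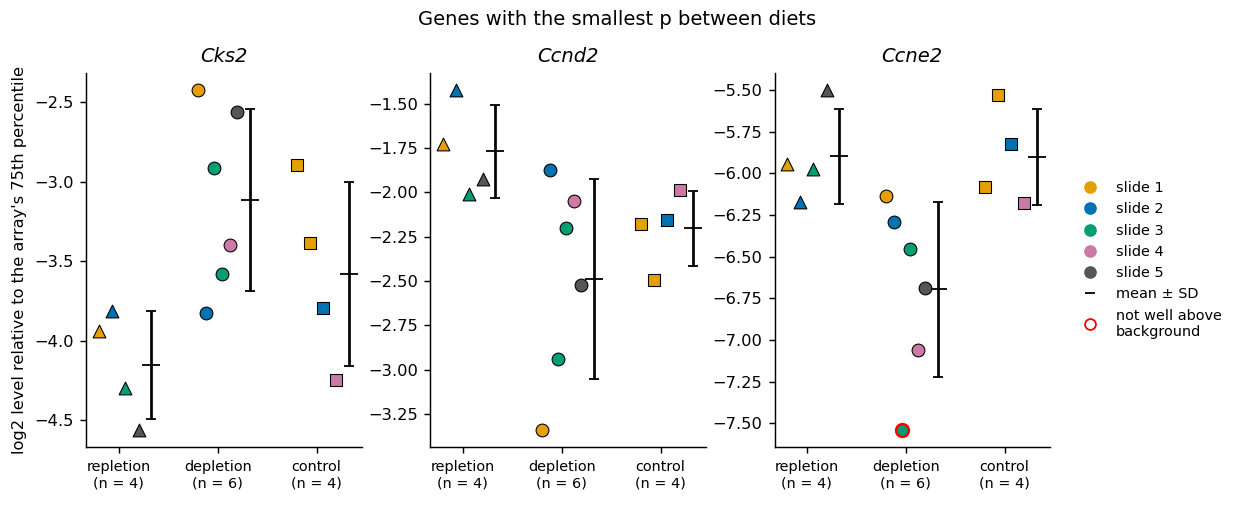
Log2 level, relative to the array's 75th percentile, of Cks2, Ccnd2 and Ccne2 in each muscle by diet (repletion, depletion, control), with points coloured by slide, a red rim where the probe was not well above background, and bars for the mean ± SD. Repletion muscles lie from -4.56 to -3.81 for Cks2 and from -2.01 to -1.42 for Ccnd2, and depletion muscles reach down to -7.54 for Ccne2.

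Some lists of markers of other cell types leaned to 1 direction between diets, and others were mixed. Among all genes, 46.2% were higher in depletion than in control. In repletion, 58.6% were higher than in depletion and 54.5% higher than in control. Fibroblast markers, such as Col1a1 and Pdgfra, were higher in repletion than in depletion for 8 of 8 genes (median 0.40) and lower in depletion than in control for 7 of 8 (median -0.35). Their summed signal, in units of the array's 75th percentile, was 27.4 to 48.0 in repletion, 22.8 to 43.0 in depletion and 31.2 to 57.6 in control muscles, with at least 7 of the 8 well above background on every array. Macrophage markers were higher in depletion than in control for 11 of 12 (median 0.50), and in repletion than in control for 10 of 12 (median 0.47), with summed signals of 28.8 to 33.7 in repletion, 16.2 to 51.9 in depletion and 14.7 to 30.7 in control muscles. Erythroid markers were higher in depletion than in control for 6 of 6 that passed (median 0.59) and in repletion than in control for 6 of 6 (median 0.30), with summed signals of 24.7 to 45.1 in repletion, 22.3 to 87.5 in depletion and 18.7 to 39.1 in control muscles. In repletion against depletion, 0 of 6 erythroid markers were higher (median -0.34) and 8 of 12 macrophage markers (median 0.09). Fibroblast markers were higher in repletion than in control for 5 of 8 (median 0.11). The other lists were mixed in depletion against control. There, 4 of 10 fibre, 3 of 8 satellite cell, 5 of 10 endothelial and 5 of 8 lymphocyte markers were higher. So were 4 of 8 neutrophil and mast cell, 2 of 5 adipocyte and 2 of 4 Schwann cell markers. In repletion against depletion, 0 of 5 adipocyte and 4 of 4 Schwann cell markers were higher. None of these markers was called, and their part in the differences of the cell cycle genes was not tested.

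The CDK inhibitors of the Cip/Kip family, which hold cyclin-CDK complexes in check, were not called in any comparison. Cdkn1a had levels of 4.63, 4.53, 5.07 and 5.99 in repletion muscles, 5.00 to 5.56 with a median of 5.44 in depletion muscles, and 5.91, 5.47, 4.92 and 4.27 in control muscles. The depletion muscles lay inside the range of both other diets and spread less (SD 0.25) than repletion (0.66) and control muscles (0.71). The difference was -0.37 ± 0.30 in repletion against depletion (unadjusted p = 0.243) and 0.09 ± 0.32 in depletion against control. Its other probe did not vary with it (r = 0.07) and gave -0.01 ± 0.09 and -0.09 ± 0.10, so the spread of Cdkn1a is that of 1 probe.

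Cdkn1b was steady. Its level was 0.58, 0.38, 0.55 and 0.39 in repletion muscles, 0.18 to 0.77 with a median of 0.33 in depletion muscles, and 0.41, 0.70, 0.36 and 0.61 in control muscles. The SD over all 14 arrays was 0.17, and the difference in depletion against control was -0.16 ± 0.14.

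Cdkn1c, an imprinted inhibitor, varied most of the 3. Its level was 0.12, 0.08, 1.12 and 2.21 in repletion muscles, -0.18 to 2.98 with a median of 1.09 in depletion muscles, and 2.19, 2.70, 0.57 and 0.29 in control muscles. Muscles of each diet lay both near the bottom and near the top of the range. The SD was 1.02 over 14 arrays, and both of its probes showed the same pattern (r = 0.98). Diet accounted for 0.0472 of its variance, as a fraction, and the difference was -0.30 ± 0.79 in depletion against control, with -0.33 ± 0.73 in repletion against depletion.

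Several replication genes were steady. Pcna, the clamp that holds DNA polymerase on its template, had levels of 0.37, 0.19, 0.34 and 0.33 in repletion muscles, 0.10 to 0.72 with a median of 0.35 in depletion muscles, and 0.31, 0.35, 0.11 and 0.29 in control muscles. Depletion replicate 1 was the highest, and the other 13 muscles lay within the range from 0.10 to 0.43. The difference was 0.08 ± 0.11 in depletion against control, with -0.04 ± 0.10 in repletion against depletion. SDs over 14 arrays were similarly small for Mcm4 (0.14), Rrm1 (0.16), Mcm7 (0.18) and Mcm2 (0.20), and also for the G1 kinase Cdk4 (0.10). The other, dimmer probes of Mcm4 and Mcm2 had SDs of 0.30 and 0.38. They correlated with the brightest at r = 0.09 and 0.55. SDs were larger for Mcm5 (1.04), Rrm2 (0.71) and Tyms (0.57), which makes thymidylate. Tyms was well above background on 9 arrays.

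A few of these genes differed between slides. limma's F test for slide called 3 of the 35 genes (8.57%) at an adjusted p under 0.05, against 25.8% of all 17456 genes. They were Mcm5, Cks1b and Birc5, for which slide accounted for fractions of 0.93, 0.95 and 0.85 of the variance and diet for 0.0014, 0.036 and 0.0059.

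Mcm5, a helicase subunit, had levels of -5.54, -3.51, -4.48 and -6.60 in repletion muscles, -6.21 to -3.61 with a median of -5.17 in depletion muscles, and -5.49, -6.28, -3.68 and -4.98 in control muscles (adjusted p for slide = 0.000332). The highest muscle of each diet was the one on slide 2. Cks1b had levels of -0.63, -1.46, -1.59 and -0.40 in repletion muscles, -1.43 to -0.14 with a median of -1.02 in depletion muscles, and -0.61, -0.47, -1.71 and -0.20 in control muscles (adjusted p = 0.000387). Here the muscles on slides 2 and 3 were the low ones. The other Cks1b probe correlated at r = -0.31 with this one.

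Birc5, the survivin subunit of the chromosomal passenger complex, had levels of -5.08, -3.97, -4.30 and -4.83 in repletion muscles, -5.17 to -3.75 with a median of -4.75 in depletion muscles, and -4.38, -5.13, -3.87 and -5.12 in control muscles (adjusted p = 0.00681). Slide 2 held the highest muscle of each diet again. With slide in the model, the differences of these 3 genes between diets were small, at -0.17 ± 0.24 (Mcm5), 0.05 ± 0.13 (Cks1b) and -0.11 ± 0.18 (Birc5) in depletion against control.

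**Figure D3:**
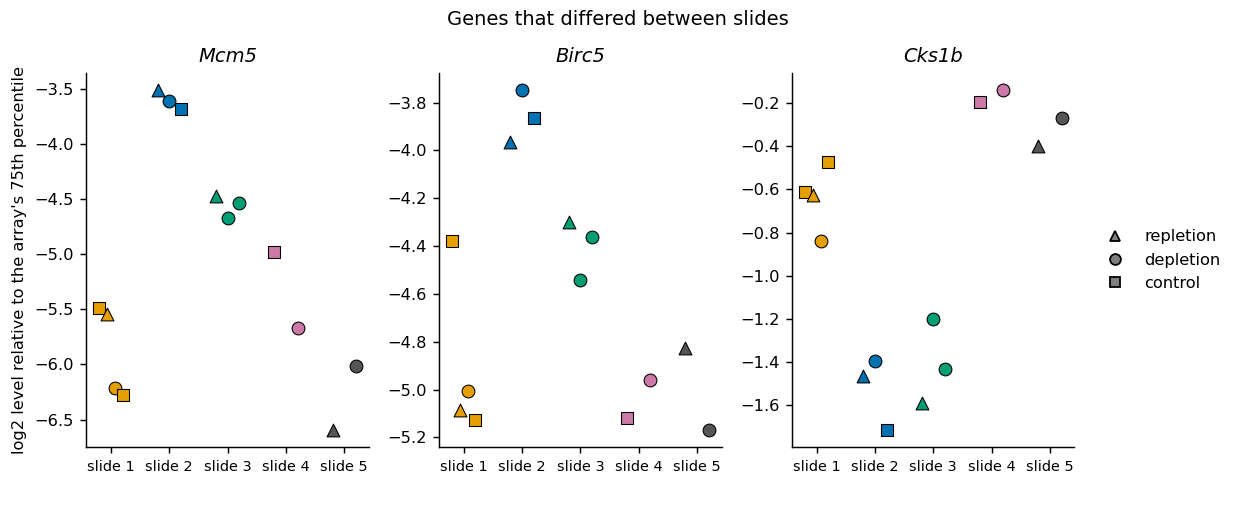
Log2 level, relative to the array's 75th percentile, of Mcm5, Birc5 and Cks1b in each muscle by slide, with the diet given by the symbol. The 3 muscles on slide 2, 1 of each diet, sit together at the top for Mcm5 and Birc5, and low for Cks1b.

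Many of the 35 genes, of several roles, were high or low in the same muscles. Control replicate 1 was the highest of the 14 arrays for 12 of the 35 genes, while it was the highest for 4.64% of all genes. Depletion replicate 1 was the lowest for 10 of 35, against 19.4% of all genes, and the highest for 4 of 35, against 14.6%. This array was thus extreme for many genes outside the list too. Cdk1, the kinase that drives entry into mitosis, shows the pattern. Its level was -3.46, -2.56, -3.35 and -3.74 in repletion muscles, -3.96 to -2.56 with a median of -3.22 in depletion muscles, and -1.84, -3.67, -2.90 and -3.21 in control muscles. Of the controls on slide 1, replicate 1 was the highest of all 14 muscles and replicate 2 was among the lower ones, and the diets overlapped; the difference in depletion against control was -0.17 ± 0.43.

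**Figure D4:**
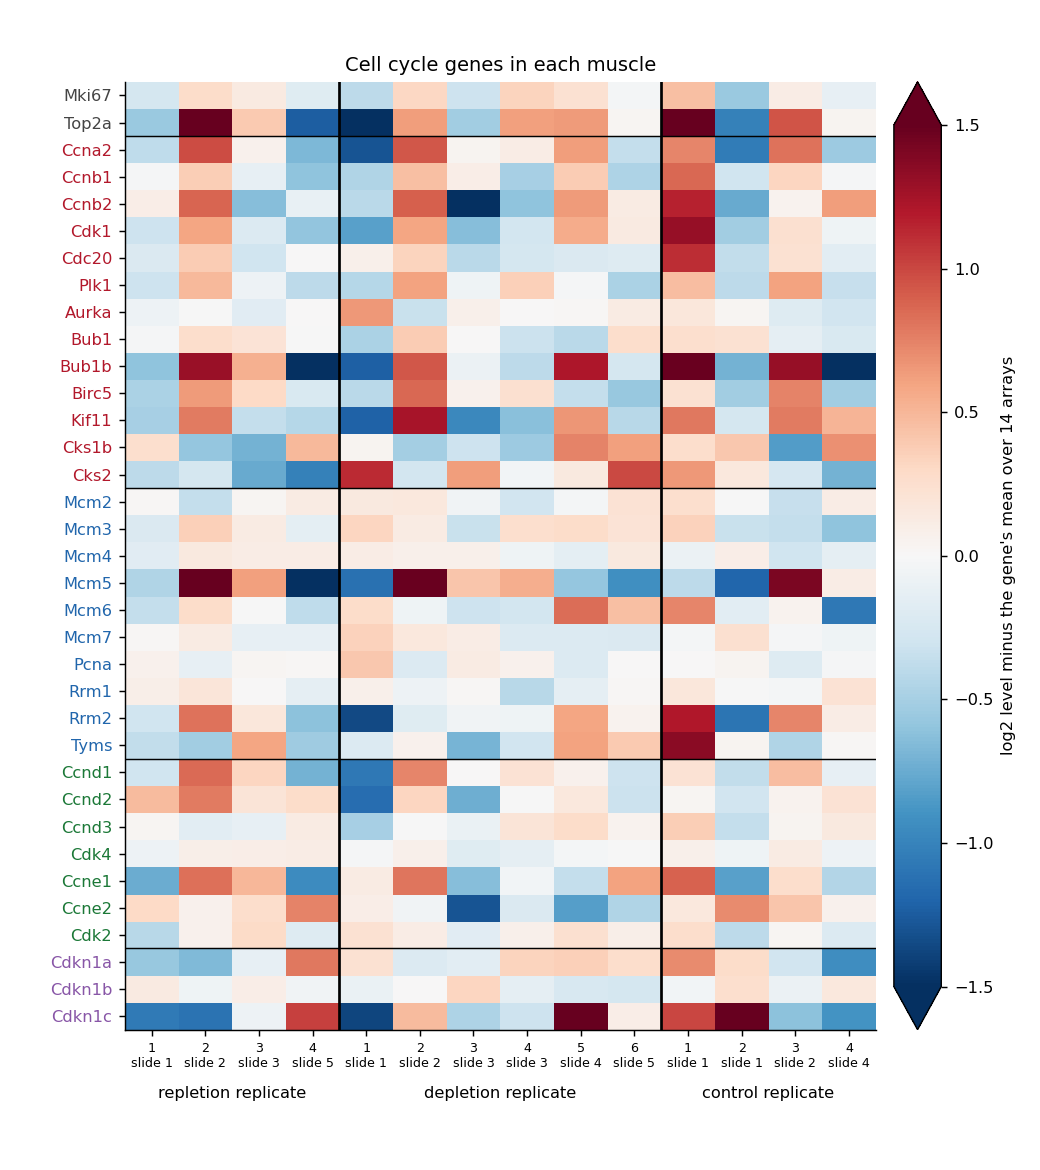
Deviation of each gene's log2 level from its mean over the 14 arrays (red higher, blue lower; colours saturate at the ends of the scale), with muscles in columns by diet (repletion, depletion, control) and genes in rows by role. Columns such as control replicate 1 and repletion replicate 2 are red, and depletion replicate 1 and control replicate 2 blue, for many mitotic genes at once, while Pcna, Mcm4 and Cdk4 stay near white.

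To describe this, each gene's level was correlated with that of Mki67 over the 14 muscles, with and without the slide means. With slide means removed, 13 of 34 genes had r of at least 0.7, a limit chosen after the values were seen, against 3.35% of 17232 genes. Their median r was 0.59, against -0.05 over all genes. Without that step, 8 of 34 reached it, against 1.68%, with medians of 0.54 and 0.07. The uncorrected count was 5 after quantile normalization (against 1.15% of all genes), 3 in the authors' deposited values (2.92%) and 1 with median centring (0.760%). The slide-corrected count was 12, 13 and 14 under these, against 3.48%, 3.28% and 3.05%. With normexp background correction both counts were 5, against 0.785% of all genes uncorrected and 1.90% slide-corrected.

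The closest followers were mitotic. With slide means removed, Ccnb2 had r = 0.92, Cdk1 0.89, Plk1, a kinase of the spindle poles, 0.88, and Ccna2, the cyclin of S phase and G2, 0.83. The exact permutation p within slides (3456 orders, two-sided) was 0.000289, the smallest they can give, for Ccnb2 and 0.00376 for Cdk1, and 0.0252 for Plk1 and 0.00666 for Ccna2. Adjusted over 17232 genes none passed, and the lowest adjusted p among the 34 genes was 0.332. Under 6 other settings, Cdk1 stayed between 0.89 and 0.91 and Plk1 between 0.83 and 0.88, while Ccnb2 ranged from 0.44 to 0.92 under the 5 that kept it.

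As measured, with slide means kept, Cdk1 had r = 0.81 (Spearman rho 0.82), Ccna2 0.85 (rho 0.82), Top2a 0.84 (rho 0.86) and Rrm2 0.79 (rho 0.67). The two-sided permutation p of r (100000 draws) was 0.00057, 0.00028, 7.00e-05 and 0.00065, and that of rho 0.00077, 0.00063, 0.00016 and 0.0112. These draws shuffled muscles across slides and so took no account of slide. Leaving out the 2 muscles farthest from the median of Mki67, control replicate 2 and depletion replicate 1, gave 0.78, 0.75, 0.87 and 0.63. Adjusted over 17232 genes, the lowest p among the 34 genes was 0.0705 for r and 0.115 for rho. Other settings moved these values: Cdk1 kept r from 0.72 to 0.83, but Ccna2 ranged from -0.10 to 0.86, Top2a from 0.17 to 0.84 and Rrm2 from 0.17 to 0.80. Plk1, with r = 0.78 as measured, ranged from -0.34 to 0.79.

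Replication genes split. With slide means removed, Tyms (0.76), Rrm2 (0.73), Mcm3 (0.69) and Mcm6 (0.57) went with Mki67, whereas Mcm7 (-0.74), Pcna (-0.44), Mcm4 (-0.24) and Rrm1 (-0.16) did not. Rrm2 and Rrm1 encode the 2 subunits of 1 enzyme, ribonucleotide reductase, and had SDs of 0.71 and 0.16. The value of Rrm2 rests on 1 of its 2 probes, which correlated at r = -0.16. Of the G1 genes, Ccnd3 (0.78), Ccne1 (0.71), Ccnd1 (0.71) and Cdk2 (0.66) went with Mki67, and Ccne2 (-0.04) did not. Cks2 (0.08), Cks1b (-0.11) and Aurka (-0.01) were the mitotic genes nearest to 0. Cdkn1b ran opposite (-0.65), and Cdkn1a (0.49) and Cdkn1c (0.30) lay between.

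The 10 genes besides Mki67 with both a CHR element and a CCAAT box in the window, among them Cdk1, Ccnb2 and Top2a printed above, had a median r of 0.78 with slide means removed, ranging from -0.74 to 0.92. The 17 with a window but not both motifs had a median of 0.57, ranging from -0.65 to 0.78. As measured, the medians were 0.58 and 0.44. The ranges overlap, and Cks2, Cks1b, Mcm7 and Rrm1 carry both motifs without following Mki67. Genes without a window are in neither group, among them Ccna2, Rrm2 and Ccnd1, which followed Mki67, and Ccne2, which did not. The part of role in this difference was not tested.

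**Figure D5:**
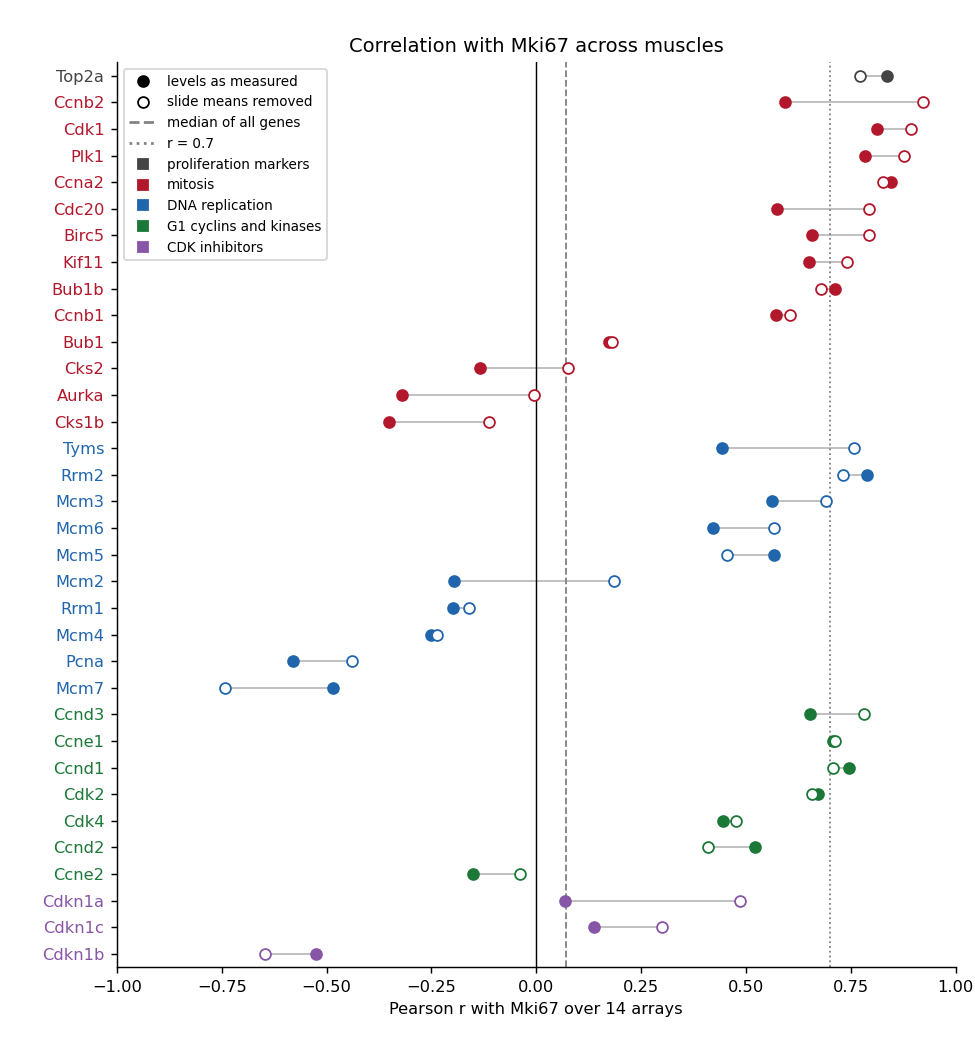
Pearson r with Mki67 over the 14 arrays for 34 cell cycle genes, as measured (filled) and with slide means removed (open), with genes down the page coloured and ordered by role. Most mitotic and G1 genes lie to the right, up to 0.92 for Ccnb2, and Mcm7, Pcna and Cdkn1b lie left of 0; the dashed line marks the median of all genes at 0.07.

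Other cell cycle genes and markers were set against Mki67 in the same way, as scores (the mean deviation over a list), 15 relations in all. The permutation p again took no account of slide, whereas the exact p came from shuffles within slides. The score of 27 other mitosis genes had r = 0.73 as measured (permutation p = 0.00448, adjusted over the 15 p = 0.0336; rho 0.65, permutation p = 0.0140, adjusted p = 0.105) and 0.86 with slide means removed (exact p = 0.0133, adjusted p = 0.187). It was 0.60 without the 2 farthest muscles, and under normexp 0.28 as measured and 0.27 with slide means removed. The score of 23 other replication genes had r = -0.04 as measured and 0.04 with slide means removed. As measured it was 0.45 in the authors' deposited values, where the mitosis score had 0.43, and -0.42 over the genes well above background on all 14 arrays. The fibroblast score had r = 0.72 (permutation p = 0.00337, adjusted p = 0.0336; rho 0.71, permutation p = 0.00592, adjusted p = 0.0888; r = 0.70 without the 2 farthest muscles) and 0.75 with slide means removed (exact p = 0.0712, adjusted p = 0.341), though 0.23 as measured in the authors' deposited values. Endothelial and satellite cell scores had r of 0.72 and 0.61 with slide means removed, with adjusted p of 0.187 and 0.341. The muscle fibre score had r = -0.44 as measured, -0.81 without the 2 farthest muscles and 0.50 in the authors' deposited values. Which cells the Mki67 signal came from was not tested.

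The wider pathway was described from lists of other genes. Of 27 measured mitosis genes outside the 36, 0 were called, and 8 were higher and 19 lower in depletion than in control (median -0.17). Nek2, a kinase that splits the centrosomes, was lower in depletion (-0.33 ± 0.13, unadjusted p = 0.0295), and Smc2, a condensin subunit, had -0.46 ± 0.23. In repletion against depletion 16 were higher and 11 lower (median 0.05), with Nek2 at 0.26 ± 0.12 and Espl1, the separase that cuts cohesin, at 0.51 ± 0.30. In repletion against control, 10 were higher and 17 lower (median -0.07), with Smc2 at -0.61 ± 0.25 (unadjusted p = 0.0358) and Cenpf at 0.49 ± 0.37. Smc2 was the 1 of 27 that was lower at an unadjusted p under 0.05, against 0.762% of all genes.

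Of 23 measured replication genes outside the 36, 0 were called and 0 reached an unadjusted p under 0.05 in any comparison. The median of the 23 genes was 0.06 in depletion against control, where Slbp, which binds histone transcripts, had -0.35 ± 0.19 and Fen1, the flap nuclease, 0.28 ± 0.16. It was -0.03 in repletion against depletion, where Fen1 had -0.19 ± 0.15. It was 0.04 in repletion against control, where Slbp had -0.26 ± 0.21 and Mcm10 0.14 ± 0.13.

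The RB and E2F genes, the switch between G1 and S phase, had medians of 0.00, 0.00 and 0.01 in the 3 comparisons over 16 measured genes. At an unadjusted p under 0.05 there were 0, beside the small shares of all genes just given. Myc, a driver of growth, had differences of 0.53 ± 0.31 in depletion against control, with -0.53 ± 0.29 in repletion against depletion. Cdk6 had 0.45 ± 0.26 in depletion against control, Rbl2 0.29 ± 0.24 in repletion against depletion, and E2f6 and E2f5 -0.23 ± 0.16 and 0.15 ± 0.14 in repletion against control. Of the other 5 CDK inhibitors, 0 were called in any comparison. In depletion against control, 1 of 5 was lower at an unadjusted p under 0.05, against 2.61% of all genes. This was Cdkn3, a phosphatase that acts on CDKs (-0.61 ± 0.23, unadjusted p = 0.0259, adjusted p = 0.832 in limma). Cdkn3 had 0.23 ± 0.21 in repletion against depletion and -0.38 ± 0.25 in repletion against control. Cdkn2a had -0.36 ± 0.25 in depletion against control, and -0.25 ± 0.28 for repletion relative to control, and Cdkn2c 0.25 ± 0.14 in repletion against depletion.

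Targets of p53, which arrest the cycle or start cell death, had medians of 0.05 in depletion against control, -0.08 in repletion against depletion and -0.07 in repletion against control, over 20 genes with 0 called. In depletion against control, 1 of 20 was higher and 1 lower at an unadjusted p under 0.05, against 2.14% and 2.61% of all genes. The higher one was Btg2, an antiproliferative gene (0.61 ± 0.24, unadjusted p = 0.0273). The lower one was Sesn1, a stress-response gene (-0.45 ± 0.20, unadjusted p = 0.0451). In repletion against depletion, 3 of 20 reached an unadjusted p under 0.05, all lower, against 0.928% lower among all genes, among them the nuclease Aen (-0.40 ± 0.14) and Bbc3, a promoter of cell death (-0.66 ± 0.27). Bbc3 had -0.58 ± 0.32 and Perp 0.33 ± 0.19 in repletion against control.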

How the data were processed

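RNA of 14 plantaris muscles was measured on 1-colour Agilent rat arrays (Cy3). Per the file headers, the deposited spot intensity was made by Feature Extraction 11.5.1.1 (protocol GE1_1105_Oct12), background-subtracted but not scaled between arrays, with probe coordinates on rn4. The authors' deposited table of log2 values, made with limma per the submitters' processing notes (filter and background correction not given in the sources used here), served as an alternative.

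Here each array's processed signal was divided by its 75th percentile and put on a log2 scale, with outlier-marked spots missing and spots of a probe averaged. The filter kept probes with 2 or more values per diet that were well above background on 4 or more of 14 arrays. Each gene was read from its brightest probe. Differences were fitted with limma 3.58.1 in R 4.3.3 over all 3 diets with slide as a fixed block, and p-values were Benjamini-Hochberg adjusted over 26391 probes and called under 0.05. Adjusted p-values in the text are limma's unless a permutation is named. The fit and the permutation test were tested on simulated data. Other software was matplotlib 3.10.9, pandas 2.3.3, numpy 2.4.6 and Python 3.11.15. Of 30367 probes, 18438 were named through their RefSeq accession and 6522 had no gene name.

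Values are given in every array for genes with an unadjusted p under 0.05 in any comparison, those called for slide, and Mki67, Cdk1, Pcna and the CDK inhibitors; of other pathway lists, the 2 genes with the smallest p in each comparison are named, except 1 that is not reported here. The members, lists and rules were chosen with earlier results of these data known. Replicate numbers were not used to pair muscles in the main fit. The correlations of same-numbered muscles ran from -0.49 to 0.72. Those on the same slide had 0.23 to 0.72, and every negative value came from muscles on different slides. These correlations therefore cannot tell pairing from a shared slide. Correlations with Mki67 and their alternatives were added after the data were seen. Alternatives were other background corrections, scalings, filters and blocks, array weights, the authors' values, fits of 2 diets only, the mean over probes, the other label of depletion replicate 1, and each array left out.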

Additional observations from a re-analysis of the deposited data

Results flagged for a closer look

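Of 105 sets of levels (35 genes in 3 diets), 7 held a muscle far from the others of its diet by Dixon's test, and chance flags about 1 in 20. Top2a was lowest in depletion replicate 1 at -9.15, where it was not well above background, with the next muscle at -6.69. Kif11, the motor that pushes spindle poles apart, was highest in repletion replicate 2 at -5.10, with the next at -6.23. Mcm3 was lowest in depletion replicate 3 at -3.31, with the next at -2.85. In repletion replicate 1, Mcm4 was lowest at -1.07, with the next at -0.80, and Cdk4 at -0.35, with the next at -0.18. Mcm7 was highest in control replicate 2 at 1.48, with the next at 1.22, and Tyms in repletion replicate 3 at -6.30, with the next at -7.26.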

How the results depend on the processing

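The count of 0 called probes held in each diet comparison and in the F test for diet under every alternative and with each array left out, at an adjusted p under 0.05 in limma. The F test for slide called 7400 probes, 2072 under normexp and 4446 when genes were averaged over probes, where fewer features were tested, and 6383 to 7419 with an array left out. The median difference of the 35 genes ran from -0.17 to 0.10 in depletion against control with an array left out, from -0.09 to 0.06 in repletion against depletion and from -0.14 to 0.09 in repletion against control, so its sign is not fixed. Normexp moved the median of all genes to -0.13 for depletion relative to control and to -0.10 for repletion relative to control, and that of the 35 genes to -0.19 and -0.24. With replicate number as a block in place of slide (replicate block), 0 probes were called in each comparison, and probes at an unadjusted p under 0.05 numbered 325 higher and 995 lower, 337 and 122, and 125 and 170 in the 3 comparisons, against 566 and 709, 662 and 255, and 342 and 182 with slide. With an array left out, Cks2 kept -1.44 to -0.92, Ccnd2 0.56 to 0.88 and Ccne2 0.53 to 0.83 in repletion against depletion, and Ccne2 -0.87 to -0.63 in depletion against control. Of the 34 genes, 8 had r of at least 0.7 with Mki67 as measured, against 1.68% of all genes. With an array left out the count was 6 to 11, against 1.53% to 4.63%. The highest share came without control replicate 1, where the count was 6. The count was 5 under normexp (0.785%), 5 after quantile normalization (1.15%), 1 with median centring (0.760%) and 3 in the authors' values (2.92%). With slide means removed it was 13 (3.35%), and 5 under normexp (1.90%). The cause was not tested. Dim signal limits Bub1b, Tyms, Top2a and Ccnb2, well above background on 6, 9, 11 and 12 arrays.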
